A study of Mus musculus with 12 samples.

Results

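The oligodendrocyte lineage and myelin genes were followed in acute hippocampal slices after chemical long-term potentiation (LTP), as 30 genes of the 41091 gene IDs in the count tables. They were taken by symbol from a fixed list, and all 30 were found in both tables and passed the filter on low counts in every comparison. Slices came from wild-type C57BL/6 mice 2 to 3 months old, male according to the methods, with the dentate gyrus trimmed away, and total RNA was sequenced after removal of ribosomal RNA. LTP was induced with 50 uM forskolin, which activates adenylyl cyclase and so raises cAMP, for 5 min, and then with forskolin, 30 mM KCl and 10 mM calcium until 10 min had passed. Control slices of the same animals received 0.2% DMSO over 10 min. All slices were frozen 1 hr or 3 hr later, so that control and LTP slices at each time made up 4 groups of 3 libraries, 1 per animal. Each library held RNA from all cell types of the slice, so fewer oligodendrocytes and less RNA per oligodendrocyte cannot be told apart.

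Oligodendrocytes wrap axons of the central nervous system in myelin, a stack of compacted membrane rich in lipid and in a few abundant proteins. They arise from precursor cells that carry the chondroitin sulfate proteoglycan NG2 (Cspg4) and the PDGF receptor alpha (Pdgfra), pass through a committed stage marked by Gpr17, Enpp6 and Bcas1, and then switch on the myelin genes under Sox10, Olig2 and Myrf. Neuronal activity is known to act on the division and maturation of these precursors, and cAMP is a long-used differentiation signal for myelinating cells in culture. The members were divided by role into 10 structural genes of myelin and of the mature cell, 8 lipid and metabolic genes, 5 transcription factors, and 7 genes of the precursor and committed precursor.

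Library totals ran from 37118382 to 50815001 counts, and the members together took between 0.55% and 0.886% of them. The study set 1 hr control replicate 2 aside as an outlier of its clustering, so the 1 hr groups were compared with 5 libraries and the time points with 11, while its values are printed here as the second of each trio of 1 hr control values. Levels of marker lists are given beside the labelled tissue. The 8 genes listed for pyramidal neurons summed to 4766 to 6347 CPM (a count divided by the library total, itself scaled with TMM) in the fitted libraries, and the 4 listed for dentate granule cells to between 234 and 350.2. Whether each gene is specific to its cell type was not tested, so these sums do not measure how fully the dentate gyrus was trimmed.

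Per kilobase of exon, myelin basic protein (Mbp), which holds the compacted membranes together on their cytoplasmic side, had the highest mean level of the members over the 12 libraries, at 363 RPKM (CPM divided by the exon length in kilobases). Mobp, a further myelin protein, followed at 254 RPKM. Claudin 11 (Cldn11), which forms the tight junctions of myelin, and Cnp, an enzyme that keeps cytoplasmic channels in myelin open, both lay at 105 RPKM. Bcas1 at 79.4 RPKM, carbonic anhydrase 2 (Car2) at 78.6 RPKM and Qdpr at 76.1 RPKM were next. These last levels lay closer to each other than the spread of each gene over the libraries. Mbp alone gave from 38.5% to 45.4% of all counts of the members. The lowest levels were those of the growth factor Bmp4, at 0.456 RPKM and from 26 to 58 counts per library, of Cspg4 at 1.34 RPKM and of Enpp6 at 1.65 RPKM.

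At 1 hr after LTP induction, the question was whether any of the members differed from the control slices. None of the 30 passed the test (edgeR's quasi-likelihood test, an adjusted p by Benjamini and Hochberg under 0.1 with a fold change over 1.2), where 0.789% of all tested genes did (0.778% higher and 0.0113% lower), and the lowest adjusted p among the members was 0.544. At an unadjusted p under 0.05 there were 5 members against 6.71% of all genes, and 4 members had groups that did not overlap against 22.6% of all genes. DESeq2 and limma-voom also called 0 members. The log2 fold changes were small, from -0.25 for Bmp4 to 0.28 for the transcription factor Nkx6-2, with standard errors from 0.072 to 0.277. Of these values 27 lay above 0 and 3 below, and their median was 0.15, beside -0.001 for all tested genes. Markers of vessels and connective tissue lay on the other side of 0 in this comparison. All 6 endothelial markers were below 0 (median -0.17), with summed levels from 142 to 145 CPM in the fitted controls and from 126 to 130.5 CPM in the LTP slices. All 5 mural cell markers were below 0 (median -0.12), and 1 of them, the smooth muscle myosin Myh11, was called lower at -0.68 ± 0.14 (adjusted p 0.0465). All 5 fibroblast markers were below 0 as well (median -0.57), with summed levels from 18.5 to 33.5 CPM in the controls and from 14.8 to 21.01 CPM in the LTP slices. None of these markers was at 0 in any library, and their part in the values of the members was not tested.

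This positive median at 1 hr differed between animals. Within animal 1, 24 of 30 members were lower in the LTP slices and the median log2 ratio was -0.07. Within animal 3, 2 of 30 were lower and the median was 0.27. Within animal 2, whose control is the library set aside, 8 were lower and the median was 0.15. The fitted median was 0.29 if 1 hr control replicate 1 was left out, and 0.04 if replicate 3 of that group was. Among the structural genes, Mag, a glycoprotein of the membrane that faces the axon, had the lowest adjusted p. It was at 184, 189.7 and 155 CPM in the 1 hr controls and at 189, 193 and 204 CPM in the 1 hr LTP slices, a log2 fold change of 0.21 ± 0.08, where ± gives the SE of a fitted log2 fold change throughout. The LTP libraries lay above both fitted controls, and the set-aside control lay above the lowest of them.

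**Figure D1:**
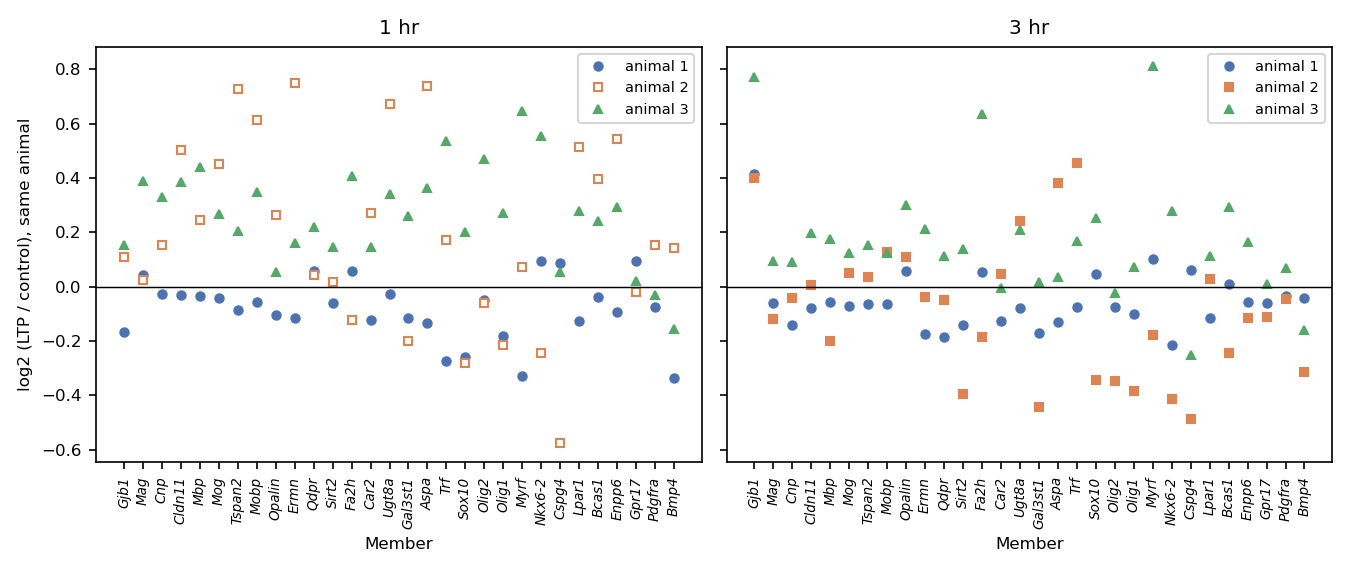
Log2 ratio of LTP over control CPM (vertical axis) for each of the 30 members (horizontal axis, ordered by role) within each animal, at 1 hr (left) and 3 hr (right). Open squares at 1 hr use the control library that the study set aside. The same number at 1 hr and 3 hr was taken as a different mouse. The animal numbered 3 at each time lies mostly above 0, with 2 of 30 members below 0 at 1 hr and 4 of 30 at 3 hr, and the animal numbered 1 at each time lies mostly below 0. Gjb1, first on the axis, lies between 0.40 and 0.77 in the 3 animals at 3 hr.

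At 3 hr after LTP induction 1 of the 30 members passed the test, against 6.6% of all tested genes (5.07% higher and 1.53% lower), and it was higher in the LTP slices. This was Gjb1, which encodes connexin 32, a gap junction protein that joins layers of myelin and couples oligodendrocytes to their neighbours. Gjb1 (chromosome X, 101376378 to 101385629, plus strand, GRCm38) was at 32.1, 41.0 and 31.3 CPM in the 3 hr controls and at 42.8, 54.1 and 53.5 CPM in the 3 hr LTP slices. Each LTP library lay above each control, and the ratio within the animals was 0.41, 0.40 and 0.77 on the log2 scale. The fitted log2 fold change was 0.54 ± 0.13 with an adjusted p of 0.054 in edgeR's quasi-likelihood test. The call depended on single control libraries. Leaving out 3 hr control replicate 1 gave a log2 fold change of 0.49 (adjusted p 0.2) and leaving out replicate 3 of that group gave 0.47 (adjusted p 0.167), which ended the call, and over all 14 alternatives the adjusted p lay between 0.00123 and 0.2.

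At 1 hr Gjb1 was at 14.2, 17.1 and 18.0 CPM in the controls and 12.6, 18.5 and 19.98 CPM in the LTP slices. Those groups overlapped, and the log2 fold change was 0.09 ± 0.16. The difference between the 3 hr and 1 hr LTP effects on Gjb1 was 0.46 ± 0.24 on the log2 scale with an adjusted p of 0.83, so the effects were not shown to differ. Over all members, none passed this test of the difference, where 0.0592% of all genes did (0.0269% higher and 0.0323% lower). At an unadjusted p under 0.05 there was 1 member (Olig2) against 6.59% of genes, DESeq2 and limma-voom called 0, and the lowest adjusted p was 0.735. The median difference of the members was -0.13, and leaving out 1 hr control replicate 1 moved it to -0.27 and leaving out replicate 3 of that group to -0.04.

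The other 29 members did not pass at 3 hr. Their log2 fold changes ran from -0.22 for Cspg4 to 0.33 for Myrf, with 16 of the 30 members above 0 and 14 below, and the median of all 30 was 0.01 beside -0.0025 for all tested genes. Leaving out single libraries moved that median to between -0.0412 and 0.0781, so its sign was not stable. The abundant myelin genes lay close to 0. Mbp was at a log2 fold change of -0.01 ± 0.10, Mag at -0.02 ± 0.10 and Cnp at -0.02 ± 0.09. Gjb1 was also the 1 member with an unadjusted p under 0.05 (20.2% of all genes) and the 1 with groups that did not overlap (27% of all genes). Opalin, a membrane protein of myelinating oligodendrocytes, was the other member higher in the LTP slices of all 3 animals, with a log2 fold change of 0.16 ± 0.12 and an adjusted p of 0.472. Bmp4 and Olig2 were lower in all 3, at -0.16 ± 0.24 and -0.13 ± 0.11. The median within-animal log2 ratio of the members was -0.07 in animal 1, -0.08 in animal 2 and 0.13 in animal 3, so the animals again differed in sign. Of the markers of other cells at 3 hr, all 5 fibroblast markers were below 0 (median -0.52), with summed levels from 20.4 to 29.5 CPM in the controls and from 13.5 to 22.9 CPM in the LTP slices, and none passed. All 6 microglia markers (median -0.09) and 6 of 7 astrocyte markers (median -0.10) were below 0, and none passed. Of the 6 endothelial markers 5 were above 0 (median 0.11), where all 6 had been below 0 at 1 hr, and the transporter Slco1c1 was called higher at 0.28 ± 0.07 (adjusted p 0.057). Their part in the values of the members was not tested.

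**Figure D2:**
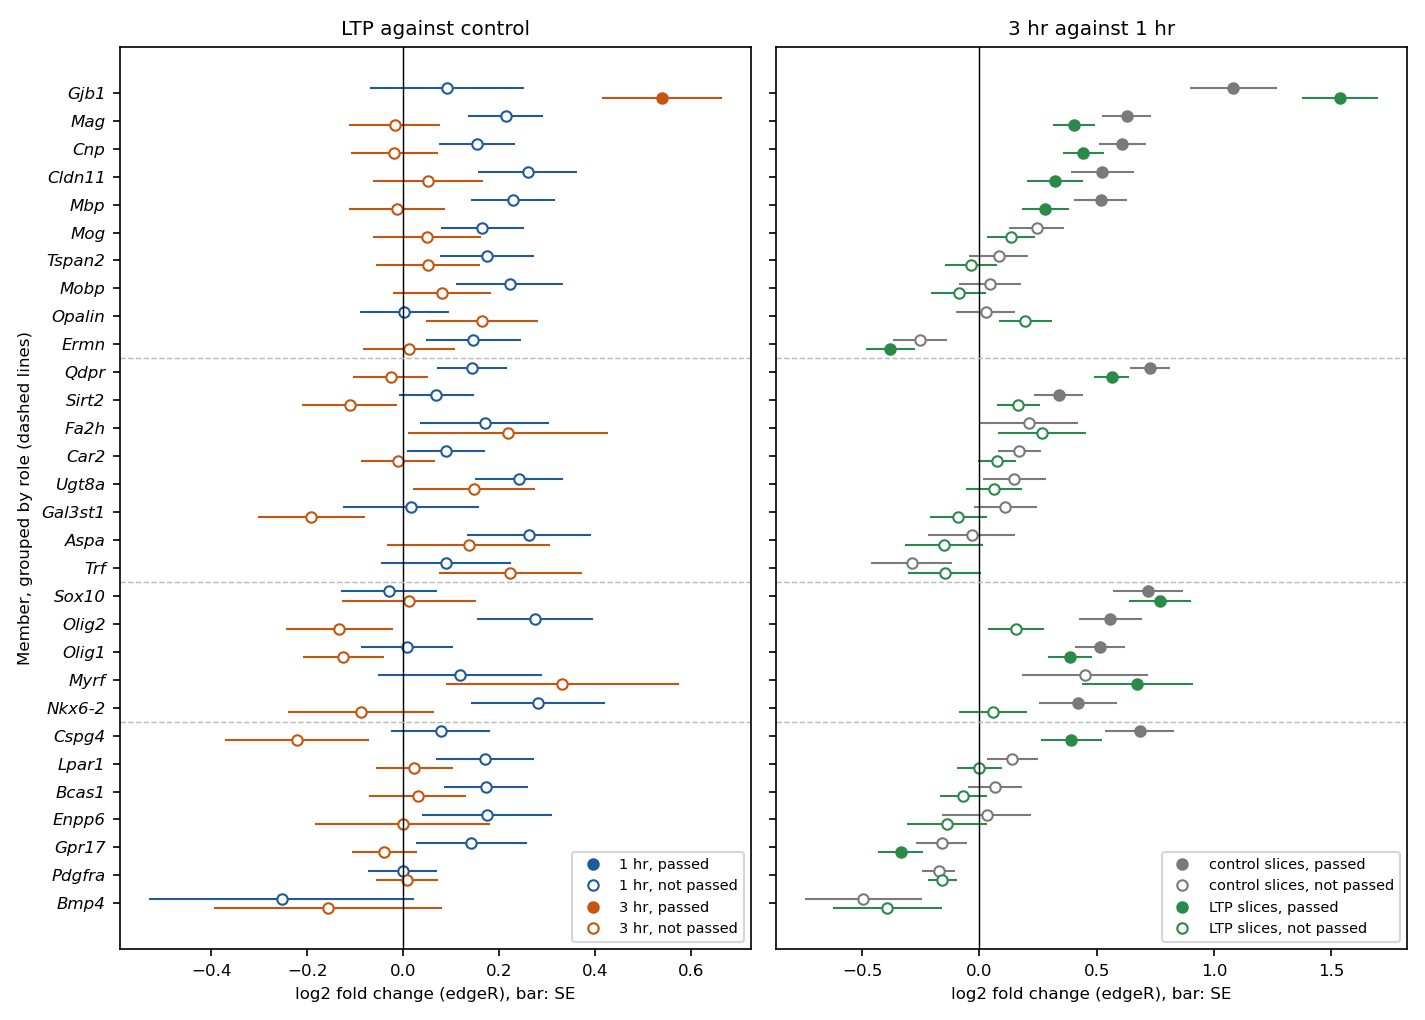
Log2 fold changes from edgeR (horizontal axes) with bars of 1 SE for the 30 members (vertical axis, grouped by role between dashed lines, from the top: structural, lipid and metabolic, transcription factors, precursor). The left panel gives LTP against control at 1 hr (5 libraries) and 3 hr (6 libraries), where Gjb1 at 3 hr is the 1 filled point, and the right panel gives 3 hr against 1 hr in control and LTP slices (11 libraries), where 12 points are filled in each. Filled points passed the test.

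The time points were then compared within each treatment. This comparison asks how the members differed between slices kept for 3 hr and for 1 hr, and time cannot be told apart from the animals, since the 3 hr and 1 hr slices were taken as different mice. In control slices 12 of the 30 members passed as higher at 3 hr and 0 as lower, a share of 40% against 32.8% of all tested genes (16.1% higher and 16.8% lower). In LTP slices 10 passed as higher and 2 as lower, again 40%, against 35.9% of all genes (18.6% higher and 17.3% lower). The share called was near that of all genes. The calls among the members were mostly higher ones, while those among all genes were split nearly evenly. The median log2 fold change of the members was 0.19 in control slices and 0.11 in LTP slices, beside -0.02 and 0.00 for all genes. In control slices it was 0.37 without 1 hr control replicate 1, 0.13 without replicate 3 of that group and 0.15 without 3 hr control replicate 2. In LTP slices omission of replicate 2 or 3 of the 1 hr group gave 0.19 and 0.16, and omission of replicate 1, 2 or 3 of the 3 hr group gave 0.19, 0.06 and 0.05. With offsets for the GC content and exonic length of the genes, taken up again further on, the median was 0.16 in control slices and 0.07 in LTP slices. The offsets ended some of the calls, and their values are given beside the members or further on. At an unadjusted p under 0.05 there were 14 members in control slices (42.1% of all genes) and 13 in LTP slices (46.2%), and 15 and 13 members had groups that did not overlap (60.7% and 44.9% of all genes). The members called as higher in both treatments numbered 9, of the 12 higher in control slices and the 10 higher in LTP slices, namely Cldn11, Cnp, Cspg4, Gjb1, Mag, Mbp, Olig1, Qdpr and Sox10. These lists share no library, but they come from the same animals and from 1 fit.

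Among the structural genes, 5 of 10 were higher in control slices and 0 lower, and in LTP slices 5 were higher and 1 was lower. The shares called, 50% and 60%, stand beside 32.8% and 35.9% of all genes. The widest difference was that of Gjb1, whose values are given above. All 6 libraries at 3 hr, from 31.3 to 54.1 CPM, lay above all libraries at 1 hr, from 12.6 to 19.98 CPM. In the fit its log2 fold change was 1.08 ± 0.19 in control slices (adjusted p 9.28e-04) and 1.54 ± 0.16 in LTP slices (adjusted p 3.16e-05).

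Mag was at 245, 303 and 253 CPM in the 3 hr controls and 235, 279 and 270.4 CPM in the 3 hr LTP slices, each above all of its 1 hr values. Its log2 fold change was 0.63 ± 0.10 in control slices (0.37 with the offsets, still called) and 0.40 ± 0.09 in LTP slices (0.16, not called). Cnp was at 320.3, 292 and 269.7 CPM in the 1 hr controls, 314, 325 and 339 CPM in the 1 hr LTP slices, 449, 507 and 421 CPM in the 3 hr controls and 407, 492 and 448 CPM in the 3 hr LTP slices. The 3 hr libraries did not overlap those at 1 hr, with a log2 fold change of 0.61 ± 0.10 in control slices and 0.44 ± 0.09 in LTP slices.

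Mbp was at 2722, 2461 and 2142 CPM in the 1 hr controls, 2658, 2921 and 2909.8 CPM in the 1 hr LTP slices, 3273, 3977 and 3397 CPM in the 3 hr controls and 3147, 3464 and 3842 CPM in the 3 hr LTP slices. Every 3 hr library was above every 1 hr library. Its fitted log2 fold change was 0.52 ± 0.11 in control slices (adjusted p 0.00436) and 0.28 ± 0.10 in LTP slices (adjusted p 0.042), and the call in LTP slices was lost without 3 hr LTP replicate 3 (0.21) and with the offsets (0.05). Cldn11 was at 173, 143 and 134 CPM in the 1 hr controls, 169, 202 and 175 CPM in the 1 hr LTP slices, 219, 261 and 195 CPM in the 3 hr controls and 208, 262 and 223 CPM in the 3 hr LTP slices. The lowest 3 hr control lay under the highest 1 hr LTP library, but within each treatment the times did not overlap. The log2 fold change was 0.52 ± 0.14 in control slices, lost as a call without 1 hr control replicate 3 (0.39), and 0.32 ± 0.12 in LTP slices, lost without 1 hr LTP replicate 1 (0.30) and without 3 hr LTP replicate 2 (0.23).

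Ermn, which encodes the cytoskeletal myelin protein ermin, went the other way. It was at 129.8, 92.4 and 116 CPM in the 1 hr controls, 119.9, 155 and 129 CPM in the 1 hr LTP slices, 106, 116 and 93.2 CPM in the 3 hr controls and 93.5, 113 and 108 CPM in the 3 hr LTP slices. The 3 hr LTP libraries lay below the 1 hr LTP libraries. In LTP slices the log2 fold change was -0.38 ± 0.10 (adjusted p 0.0122), lost as a call without 1 hr LTP replicate 2 (-0.24) and with the offsets (-0.09). In control slices it was -0.25 ± 0.12 (adjusted p 0.115).

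Mobp, second in level to Mbp, did not pass in either treatment. It was at 1894, 1378 and 1376 CPM in the 1 hr controls, 1822, 2107 and 1752 CPM in the 1 hr LTP slices, 1652, 1879.7 and 1637 CPM in the 3 hr controls and 1579, 2054 and 1784 CPM in the 3 hr LTP slices. The groups overlapped, and the log2 fold change was 0.05 ± 0.13 in control slices (adjusted p 0.818) and -0.09 ± 0.12 in LTP slices (adjusted p 0.593). Tspan2 at 0.08 ± 0.13 and Opalin at 0.03 ± 0.13 in control slices, both membrane proteins of the mature cell, also did not pass. With the offsets Tspan2 was called higher in control slices (0.27) and Opalin in LTP slices (0.30). Mog, a glycoprotein of the outer myelin surface, was at 0.24 ± 0.12 (adjusted p 0.131) and passed under 9 of 19 alternatives.

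**Figure D3:**
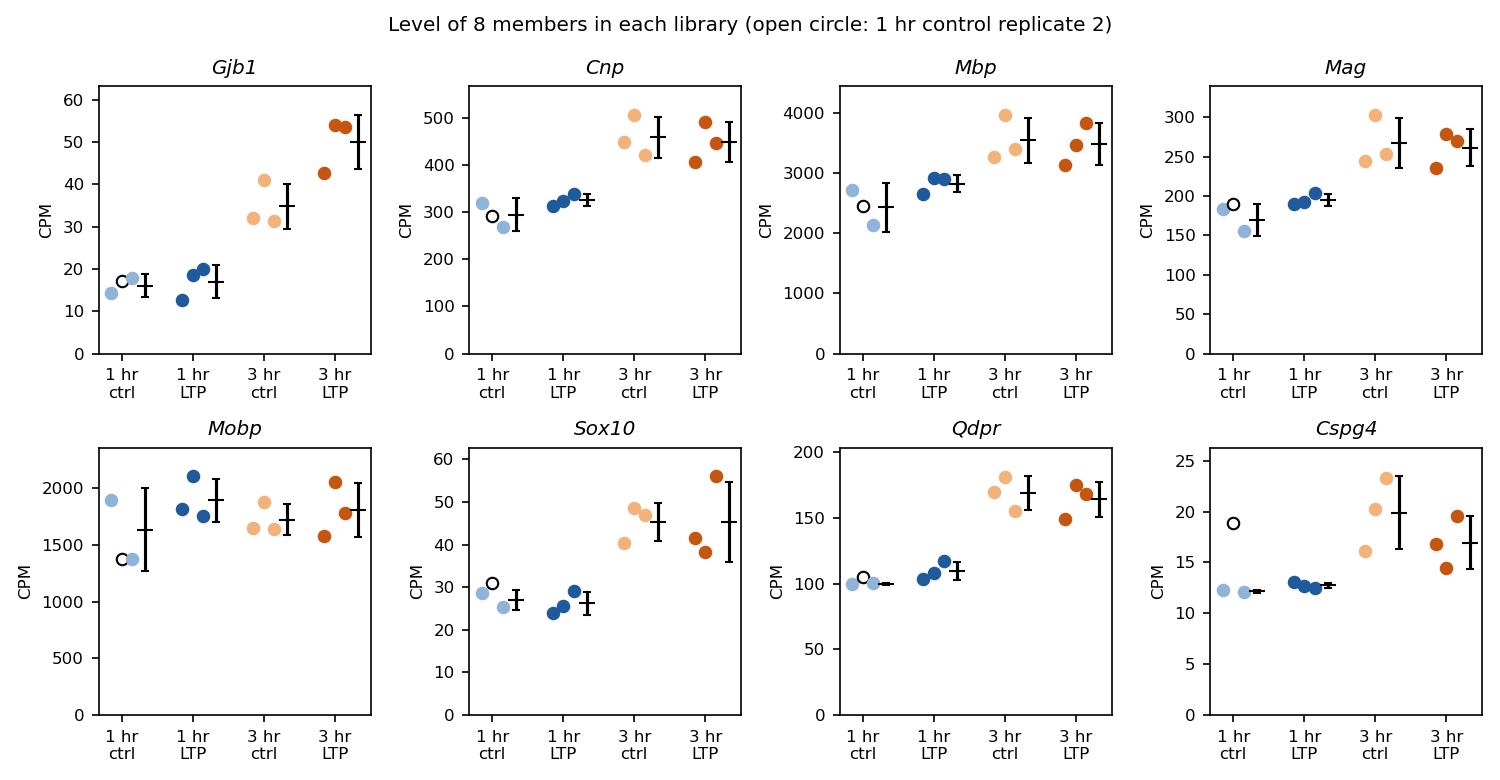
CPM (vertical axes, from 0) of 8 members in each library, by group (horizontal axes), with the group mean and SD as a bar at the right of each group. The open circle is 1 hr control replicate 2, which enters neither the means nor the fits. Gjb1 lies between 31.3 and 54.1 CPM at 3 hr and between 12.6 and 19.98 CPM at 1 hr, while the Mobp groups overlap.

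Of the 8 lipid and metabolic genes, 2 were higher at 3 hr in control slices and 1 in LTP slices, with 0 lower in either. These shares of 25% and 12.5% lay below those of all genes (32.8% and 35.9%). Qdpr, the dihydropteridine reductase that regenerates tetrahydrobiopterin, was at 99.3, 105 and 101 CPM in the 1 hr controls, 103, 108 and 117 CPM in the 1 hr LTP slices, 169.9, 181 and 155 CPM in the 3 hr controls and 149, 175 and 168 CPM in the 3 hr LTP slices. The time points did not overlap. Qdpr had a log2 fold change of 0.73 ± 0.08 in control slices (adjusted p 8.65e-05) and 0.56 ± 0.07 in LTP slices (adjusted p 1.27e-04). An annotated gene on the other strand covers 18.6% of the exons of Qdpr, and strand use in the counting is not stated.

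Sirt2, a deacetylase abundant in myelin, was at 107, 105 and 91.3 CPM in the 1 hr controls, 102, 106 and 101 CPM in the 1 hr LTP slices, 122, 137 and 123 CPM in the 3 hr controls and 111, 104 and 136 CPM in the 3 hr LTP slices. In control slices the times did not overlap and the log2 fold change was 0.34 ± 0.10 (adjusted p 0.0243), lost as a call without 1 hr control replicate 3 (0.27) and with the offsets (0.19). In LTP slices it was 0.16 ± 0.09 (adjusted p 0.178). Car2, which hydrates carbon dioxide, was the most abundant of this role per kilobase, at 186, 169 and 167 CPM in the 1 hr controls, 171, 203 and 185 CPM in the 1 hr LTP slices, 201, 214 and 192 CPM in the 3 hr controls and 184, 221 and 192 CPM in the 3 hr LTP slices. Its fitted controls did not overlap between the times, but its log2 fold change of 0.17 ± 0.09 did not pass (adjusted p 0.177).

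The enzymes that build the galactolipids of myelin did not pass in either treatment without the offsets. In control slices the log2 fold change was 0.15 ± 0.13 for Ugt8a, which makes galactosylceramide, 0.21 ± 0.21 for Fa2h, which hydroxylates its fatty acid, and 0.11 ± 0.13 for Gal3st1, which adds the sulfate of sulfatide. With the offsets Ugt8a was called higher in control (0.41) and LTP slices (0.32), Gal3st1 was called lower in LTP slices (-0.38), and Fa2h was called in neither. Aspa, which frees acetate from N-acetylaspartate, was at -0.03 ± 0.19, and the iron carrier transferrin (Trf) was at -0.29 ± 0.17. Another gene on the same strand covers 63.5% of the exons of Trf, so its counts are uncertain.

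Of the 5 transcription factors, 4 were higher at 3 hr in control slices (16.1% of all genes were) and 3 in LTP slices (18.6% of all genes). With the offsets none of the 5 was called in control slices, and in LTP slices none was higher. Sox10, which acts through the whole lineage, was at 28.6, 31.1 and 25.3 CPM in the 1 hr controls, 23.9, 25.6 and 29.2 CPM in the 1 hr LTP slices, 40.3, 48.5 and 47.0 CPM in the 3 hr controls and 41.6, 38.3 and 56.1 CPM in the 3 hr LTP slices. Each 3 hr library was above each 1 hr library. Sox10 had a log2 fold change of 0.72 ± 0.15 in control slices (adjusted p 0.00289) and 0.77 ± 0.13 in LTP slices (adjusted p 6.56e-04). With the offsets these values were 0.09 and 0.22 and neither was called.

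Olig1, the factor with the highest level per kilobase, was at 50.0, 49.9 and 42.1 CPM in the 1 hr controls, 44.1, 42.9 and 50.8 CPM in the 1 hr LTP slices, 64.1, 73.5 and 63.5 CPM in the 3 hr controls and 59.7, 56.3 and 66.7 CPM in the 3 hr LTP slices. It too was separated by time, with a log2 fold change of 0.51 ± 0.11 in control slices and 0.39 ± 0.09 in LTP slices, which with the offsets were 0.08 and 0.02 and not called. Its neighbour Olig2, which specifies the lineage, was at 14.0, 17.3 and 11.9 CPM in the 1 hr controls, 13.6, 16.6 and 16.5 CPM in the 1 hr LTP slices, 17.3, 20.4 and 20.6 CPM in the 3 hr controls and 16.4, 16.0 and 20.3 CPM in the 3 hr LTP slices. Its LTP libraries overlapped between the times. The log2 fold change was 0.56 ± 0.13 in control slices (adjusted p 0.00706) and 0.16 ± 0.12 in LTP slices (adjusted p 0.323), and the difference between them of -0.40 ± 0.18 did not pass (adjusted p 0.735). With the offsets Olig2 was at 0.21 in control slices, not called, and at -0.16 in LTP slices.

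Nkx6-2, a homeodomain factor of maturing oligodendrocytes, was at 7.64, 9.16 and 6.30 CPM in the 1 hr controls, 8.16, 7.72 and 9.31 CPM in the 1 hr LTP slices, 8.85, 10.4 and 9.26 CPM in the 3 hr controls and 7.61, 7.80 and 11.3 CPM in the 3 hr LTP slices. The set-aside control lay within the range of the 3 hr controls. The log2 fold change was 0.42 ± 0.17 in control slices (adjusted p 0.0686), lost as a call with the set-aside library in the fit (0.30) and when either 1 hr control replicate 3 (0.32) or 3 hr control replicate 2 (0.37) was left out, and 0.06 ± 0.15 in LTP slices. With the offsets both values turned, to -0.23 in control slices and to -0.44 in LTP slices, where it was called lower.

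Myrf, which drives the myelin genes themselves, was at 16.0, 12.9 and 9.28 CPM in the 1 hr controls, 12.7, 13.5 and 14.6 CPM in the 1 hr LTP slices, 16.0, 18.2 and 18.7 CPM in the 3 hr controls and 17.2, 16.1 and 32.9 CPM in the 3 hr LTP slices. The last of these libraries stood far above the other 11. The log2 fold change in LTP slices was 0.67 ± 0.24 (adjusted p 0.0387) and, without that library, 0.27 and no longer called, as with the offsets (0.28). In control slices it was 0.45 ± 0.27 (adjusted p 0.22).

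Of the 7 genes put in the precursor role, Cspg4 was higher at 3 hr in both treatments, Gpr17 was lower in LTP slices, and the remaining 5 did not pass. The share called was 14.3% in control slices (32.8% of all genes) and 28.6% in LTP slices (35.9%). Cspg4 was at 12.3, 18.9 and 12.1 CPM in the 1 hr controls, 13.0, 12.7 and 12.5 CPM in the 1 hr LTP slices, 16.2, 20.3 and 23.3 CPM in the 3 hr controls and 16.9, 14.4 and 19.6 CPM in the 3 hr LTP slices. Each 3 hr library lay above each fitted 1 hr library, but the set-aside control, at 18.9 CPM, fell among the 3 hr values. Cspg4 had a log2 fold change of 0.68 ± 0.15 in control slices (adjusted p 0.00371) and 0.39 ± 0.13 in LTP slices (adjusted p 0.03), the latter lost as a call without 3 hr LTP replicate 3 (0.28). With the offsets Cspg4 was at 0.32 in control slices, still called, and at -0.04 in LTP slices, not called. Mural cells of vessels also make NG2. Of their 5 markers, 4 were called lower in control slices and 3 in LTP slices. The summed level was from 190.4 to 194 CPM in the 1 hr controls, 165 to 179.8 CPM in the 1 hr LTP slices, 138 to 145 CPM in the 3 hr controls and 136 to 141 CPM in the 3 hr LTP slices, and no marker was at 0. The part of mural cells in the Cspg4 result was not tested.

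Pdgfra, the receptor that keeps precursors dividing, was lower in all 6 libraries at 3 hr than in the 5 fitted at 1 hr. Its 1 hr libraries ran from 89.3 to 97.5 CPM, with the set-aside control at 87.7 CPM, and its 3 hr libraries from 77.8 to 88.5 CPM. Pdgfra had a log2 fold change of -0.17 ± 0.07 in control slices (adjusted p 0.0744) and -0.16 ± 0.06 in LTP slices (adjusted p 0.0643), under the fold change minimum of 1.2. The precursor markers Cspg4 and Pdgfra thus stood on opposite sides of 0, except in LTP slices with the offsets, where Pdgfra was at -0.20 and Cspg4 also below 0.

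Gpr17, a receptor that holds committed precursors before maturation, was at 24.3, 27.3 and 20.6 CPM in the 1 hr controls, 25.9, 26.9 and 20.9 CPM in the 1 hr LTP slices, 20.6, 20.6 and 20.1 CPM in the 3 hr controls and 19.7, 19.1 and 20.3 CPM in the 3 hr LTP slices. The 3 hr libraries lay in a narrow band below most of the 1 hr libraries. In LTP slices the log2 fold change was -0.34 ± 0.10 (adjusted p 0.0151), lost as a call without 1 hr LTP replicate 2 (-0.24), and in control slices it was -0.16 ± 0.11 (adjusted p 0.277).

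Bcas1 had the highest level per kilobase of the genes put in the precursor role, at 79.4 RPKM beside 16.7 for Lpar1 and 8.77 for Pdgfra. Whole-slice libraries do not show at which stage cells made these RNAs. Bcas1 was at 308, 262 and 258 CPM in the 1 hr controls, 299, 344 and 305 CPM in the 1 hr LTP slices, 282, 346 and 278 CPM in the 3 hr controls and 284, 293 and 341 CPM in the 3 hr LTP slices. The groups overlapped, with a log2 fold change of 0.07 ± 0.11 in control slices and -0.07 ± 0.10 in LTP slices. Enpp6, which marks newly formed oligodendrocytes, was at 0.03 ± 0.19 in control slices, the lysophosphatidic acid receptor Lpar1 at 0.14 ± 0.11, and Bmp4, an inhibitor of oligodendrocyte maturation, at -0.49 ± 0.25 (adjusted p 0.148).

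GC content of the annotated transcripts moved with the time differences, and its part in them was not tested beyond a fit with offsets. The 12 members called higher in control slices had a GC content from 50.9% to 64.9% (median 56.6%), and the 18 not called from 38% to 59.9% (median 50.2%). Across the 30 members, which share the libraries and are not independent replicates, the Pearson correlation of GC content with the log2 fold change was 0.529 (Spearman 0.585) in control slices and 0.449 (Spearman 0.515) in LTP slices. With offsets for GC content and exonic length in the fit, 14 members passed in control slices, 11 higher and 3 lower, against 12 and 0 without them. In LTP slices 7 were higher and 3 lower, against 10 and 2.

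In control slices Sox10, Olig1, Olig2, Nkx6-2 and Sirt2 were no longer called. Gjb1 at 0.98, Qdpr at 0.78, Cldn11 at 0.59, Cnp at 0.42, Mag at 0.37, Mbp at 0.33 and Cspg4 at 0.32 were still called, and Mog, Ugt8a, Tspan2 and Lpar1 were added as higher and Gpr17, Bmp4 and Trf as lower. In LTP slices Mbp, Mag, Olig1, Sox10, Myrf, Ermn and Cspg4 were no longer called, and Nkx6-2 was called lower. Mog, Opalin and Ugt8a were added as higher and Gal3st1 as lower. Gjb1, Cnp, Qdpr and Cldn11 were called as higher in both treatments with and without the offsets. Among members called in neither fit, Aspa, Bcas1, Ermn, Gal3st1 and Mobp changed sign in control slices, Gal3st1 from 0.11 to -0.24 and Ermn from -0.25 to 0.0079, and Aspa, Lpar1, Olig2 and Tspan2 did in LTP slices.

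**Figure D4:**
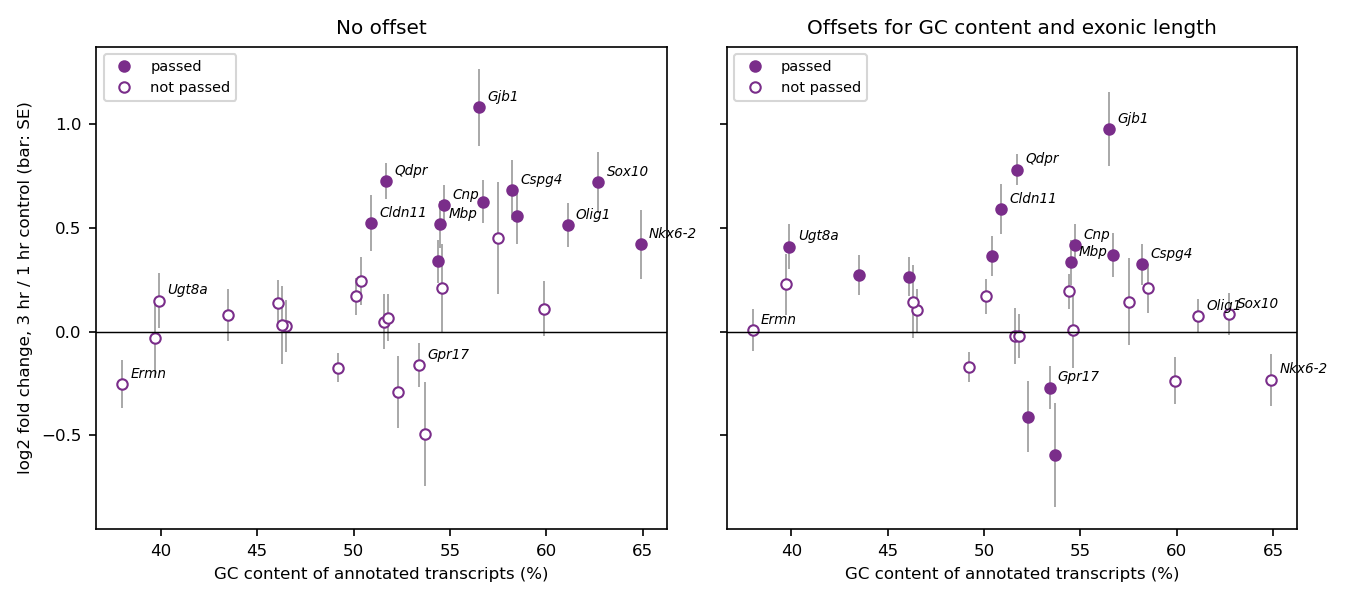
Log2 fold change of 3 hr over 1 hr control slices (vertical axis, bars of 1 SE) against the GC content of the annotated transcripts (horizontal axis, percent) for the 30 members, without offsets (left) and with offsets for GC content and exonic length (right). Filled points passed the test. Without offsets the called members lie at 50.9% GC or above, and with offsets Sox10, Olig1 and Nkx6-2 at the right end drop to or below 0.09, while Gjb1 and Qdpr stay the highest points.

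The promoters of the members that rose together in both treatments were searched for the core letters bound by SOX proteins, since Sox10 was among them without the offsets for GC content and length (with them Sox10 was called in neither treatment, and Gjb1, Cnp, Qdpr and Cldn11 alone stayed called higher in both). RefSeq promoter windows, from 250 bases before to 50 bases after an annotated start (GRCm38.p6), were at hand for 21 of the 30 members, and not for Mbp, Sox10, Olig1, Myrf, Fa2h, Gpr17, Bcas1, Trf and Car2. The letters ACAAAG, read on both strands (CTTTGT on the other), were in 10 of the 31 windows of the members, and in 18.7% of the 32851 windows of all genes. The 2 Mag windows overlap and share the same match. Of the 6 jointly higher genes with a window, Gjb1, Cnp and Mag held them and Cldn11, Cspg4 and Qdpr did not. The other members that held them, Lpar1, Mobp, Opalin and Tspan2, were called in neither treatment between the times without the offsets. With the offsets Lpar1 (0.27) and Tspan2 (0.27) were called higher in control slices and Opalin (0.30) in LTP slices. Mobp held the most matches of the members, 6 in 1 window. A match is a description of the letters and not a binding site, and its absence says only that the letters are not in this window. These 30-base stretches are shown with the match in capitals, 5′ to 3′ on the strand of the gene, because they belong to the 3 myelin genes with matches among those called higher in both treatments. The first base of the match is at position -176 from the first Gjb1 start (plus strand), -57 from a second Gjb1 start inside the gene, -167 from the Cnp start (plus strand) and -67 or -126 from the 2 Mag starts (minus strand).
Gjb1 first start, chrX:101376188-101376217: gtgcctgaatacACAAAGcaatcacttttg
Gjb1 second start, chrX:101383663-101383692: gttcagcgccccACAAAGgtcccattgtac
Cnp, chr11:100574760-100574789: aacttttaaggaACAAAGaggtggcgtggc
Mag, chr7:30914972-30915001: tgacaagggcccCTTTGTgcccccctcccc

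Forskolin acts through cAMP, so the same windows were searched for the cAMP response element. The full letters TGACGTCA were in 0 of the 31 windows and in 1.79% of all windows, and the shorter TGACG (both strands, and part of the full element) was in 5 of 31, belonging to Ermn, Gal3st1, Mog and Pdgfra, and in 20.8% of all. The Gal3st1 windows overlap and share 1 distinct match. The Gjb1 windows, the member called after LTP, held neither. The letters GCGTGGGCG, bound by EGR proteins, were in 0 of 31 windows and in 0.612% of all.

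Other genes of the pathway were taken from lists that do not contain the members. Of 24 other myelin and oligodendrocyte genes, 9 were higher and 2 lower at 3 hr in control slices, a share called of 45.8% against 32.8% of all genes, with a median log2 fold change of 0.24 against -0.02. In LTP slices 5 were higher and 2 lower, a share of 29.2% that lay under the 35.9% of all genes, with a median of 0.10 against 0.00. The leading genes were Hapln2, a link protein of the node of Ranvier, at 0.76 ± 0.11 in control and 0.60 ± 0.10 in LTP slices, Tmem88b at 0.69 ± 0.13 in control slices, and gelsolin (Gsn) at 0.45 ± 0.10 in control slices. Pllp was lower at -0.32 ± 0.11 in control slices, although 54.2% of its exons overlap another gene, and Apod, a lipid carrier, was lower at -0.28 ± 0.11. At 1 hr and at 3 hr after LTP none of these 24 passed.

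Of 12 other precursor genes, 11 were tested. In control slices 2 were higher, the matrix protein Matn4 at 0.82 ± 0.13 and Megf11 at 0.34 ± 0.15, and 1 was lower, the proteoglycan Vcan at -0.42 ± 0.10. In LTP slices 3 were higher and 3 lower. The share called was 27.3% in control slices (32.8% of all genes) and 54.5% in LTP slices (35.9%). After LTP at 3 hr 1 of the 11 passed as higher, a share of 9.09% near the 6.6% of all genes (5.07% higher). This was tenascin R (Tnr), a matrix protein of perineuronal nets made by oligodendrocytes and some neurons, at 0.46 ± 0.07 with an adjusted p of 0.00974 in edgeR's quasi-likelihood test. Of 12 other regulators of differentiation, 2 were higher in control slices at 3 hr, Hes5 at 1.84 ± 0.36 and Lingo1 at 0.41 ± 0.16, and Id4 was lower at -0.55 ± 0.11. Hes5, Id4 and Lingo1 are known as brakes on maturation, and 31.8% of the exons of Hes5 overlap another gene. In LTP slices 3 were higher and 1 was lower, shares called of 25% in control and 33.3% in LTP slices, and none passed in either comparison of LTP with control.

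Of the marker lists of other cells, those of microglia and mural cells had shares called well above the shares of all genes between the times (32.8% in control and 35.9% in LTP slices). These lists too are given only without the offsets, so how far their calls depend on GC content was not tested. The 6 microglia markers summed to between 275 and 301 CPM in the fitted 1 hr libraries and between 187 and 232 CPM at 3 hr, with 5 of 6 called lower in both treatments, none at 0, and P2ry12 at -1.44 ± 0.12 in control slices. The share called was 83.3% in either treatment. In the lists that follow it was the same in both treatments, at 14.3% for astrocytes, 37.5% for pyramidal neurons, 33.3% for endothelial cells, 40% for interneurons and 25% for dentate granule cells, all near or below that of all genes. The 7 astrocyte markers had 0 called higher and 1 lower in either treatment. Of the 8 genes listed for pyramidal neurons, 6 were above 0 in either treatment (median 0.08 in control and 0.19 in LTP slices). In control slices Fibcd1 was called higher at 0.40 ± 0.13, and Neurod6 at -1.10 ± 0.12 and Snap25 at -0.51 ± 0.08 were called lower, and the same 3 were called in LTP slices. Their GC content, as a fraction, was 0.594 for Fibcd1, 0.419 for Neurod6 and 0.415 for Snap25. Of 6 endothelial markers, 2 were lower in control slices and 2 higher in LTP slices, and of 5 interneuron markers 1 was higher and 1 lower in control slices and 2 were lower in LTP slices. Of 4 dentate granule cell markers 1 was lower in either treatment. None of the 5 fibroblast markers and of the 3 tested choroid plexus markers passed between the times. The 10 structural myelin genes summed to between 4498 and 6293 CPM in the fitted 1 hr libraries and between 6036 and 7466 CPM at 3 hr. The part of these shifts between cell types in the myelin results was not tested.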

How the data were processed

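RNA-seq counts were analysed for 12 libraries. The deposited tables, 1 per time point, hold raw counts per gene ID, not normalized. According to the study's methods the authors made stranded, rRNA-depleted libraries, read 100 bases from both ends, aligned them with STAR 2.4.1c to GRCm38/mm10 and counted reads with Bioconductor packages. Whether the counting used strand is not given in the sources used here, so genes that overlap others are uncertain. For expression the paper took only reads in coding regions, and whether the deposited counts were limited in this way is not given either. Levels per kilobase and the offsets used full annotated exons and transcripts, so the ranking per kilobase is uncertain in this respect. Of 41091 gene IDs, 40217 matched GENCODE M21, which gave symbols, positions, exon lengths and GC content.

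The members, role groups and other gene lists were chosen with earlier results of these data known. Full values per library are given for members that passed in at least 1 comparison and for the member with the highest RPKM of each role, with Mobp added after its values were seen, and other lists are named by at most the 3 smallest p in each direction. The lists of cholesterol synthesis genes and Schwann cell markers are not reported here.

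Counts were tested in edgeR 4.0.16 (R 4.3.3) by its quasi-likelihood F test after filterByExpr and TMM scaling, over all genes, with Benjamini-Hochberg adjustment. A gene passed at adjusted p under 0.1 and fold change over 1.2, the limits the study used. For LTP against control the time points were fitted separately, without 1 hr control replicate 2. The time contrasts and the difference of the LTP effects came from 1 model of 4 groups with 11 libraries and had, for that difference, no fold minimum. Ratios within an animal used a pseudocount of 0.1 CPM. A count of 3, taken as the floor, is 0.0584 to 0.0791 CPM, and every member lay above it.

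LTP and control slices with the same number came from the same animal, per the labels and methods. The correlation of their deviations from the group means over 18584 genes at 1 hr was -0.0156 in animal 1, -0.154 in animal 2 and 0.0715 in animal 3. At 3 hr these values were 0.0359, -0.0268 and 0.212. Numbers pair nothing across times.

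The alternatives were DESeq2 1.42.0, limma-voom (limma 3.58.1), other scalings and filters, offsets for GC content and length (splines with 5 degrees of freedom), the animal as a block, inclusion of 1 hr control replicate 2, and leaving out each library. The fitting code was tested on simulated data. Columns of per-sample values without a sample numbered 0.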

Additional observations from a re-analysis of the deposited data

How the results depend on the processing

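The total number of the 30 members called in each comparison, both directions together, stayed within 1.5 times the number given above under DESeq2, limma-voom, both other scalings, both other filters, the offsets for GC content and length, and inclusion of 1 hr control replicate 2. The split by direction and role did not, since with the offsets 3 members were lower at 3 hr in control slices against 0 without them, and no transcription factor was still called higher. Leaving out single libraries moved some summaries. The median of the members ranged from -0.0412 to 0.0781 for LTP at 3 hr and from 0.0489 to 0.191 between the times in LTP slices. The median log2 fold change of the members ranged from 0.042 to 0.286 for LTP at 1 hr, from 0.13 to 0.37 between the controls of the time points, and from -0.273 to -0.0387 for the difference of the LTP effects, and in each of these 3 ranges the value farthest from 0 came without 1 hr control replicate 1. The number of members called for LTP at 3 hr ranged from 0 to 1, and those called between the time points from 9 to 14 in control slices and from 9 to 14 in LTP slices. With the animal as a block (the replicate block), 0 members were called at 1 hr, where the median was 0.11, 1 member (Gjb1) at 3 hr, and 0 for the difference of the effects, where the median was -0.07, so the paired fit changed no call. Offsets for GC content and length reversed the direction of Nkx6-2 between the times in control slices (-0.23) and LTP slices (-0.44) and of Cspg4 in LTP slices (-0.0402), and the cause was not tested. Among the 38 results of single members called in the reported fit or under an alternative that keeps all its libraries, 3 values reversed over all alternatives, 24 lost a call and 23 gained one, against 667 that stayed on the same side of the threshold, called or not. A further 17 results called neither without nor with the offsets changed sign under them. Depth did not limit the abundant members, while Bmp4, at 26 to 58 counts, carries the largest SE for LTP at 1 hr. With 2 or 3 libraries a group, a p above the threshold does not show that values were alike.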

Other observations

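The library that the study set aside, 1 hr control replicate 2, was compared with the other 5 libraries at 1 hr for each member. It lay above all of them for 4 members, below all of them for 10 and within their range for 16. The 4 members above were Cspg4 at 18.9 CPM (12.1 to 13.0 CPM in the other 1 hr libraries, 14.4 to 23.3 CPM at 3 hr), Sox10 at 31.1 CPM (23.9 to 29.2 CPM, and 38.3 to 56.1 CPM at 3 hr), Olig2 at 17.3 CPM (11.9 to 16.6 CPM, and 16.0 to 20.6 CPM at 3 hr) and Gpr17 at 27.3 CPM (20.6 to 26.9 CPM, and 19.1 to 20.6 CPM at 3 hr). Those below included Ermn at 92.4 CPM (116 to 155 CPM), Tspan2 at 149.9 CPM (179 to 248 CPM) and Ugt8a at 76.3 CPM (87.1 to 122 CPM). Mbp, Mag, Cnp and Gjb1 lay within the range of the other 1 hr libraries.

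The deviations of LTP and control libraries of the same animal from their group means were also correlated over the 30 members alone. At 3 hr the correlation was 0.465 in animal 1, 0.429 in animal 2 and 0.752 in animal 3. At 1 hr it was 0.134, -0.485 (a pair that includes the set-aside control) and 0.0452. The members share libraries and are not independent, so these values are a description.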
